A study of Mus musculus with 16 samples.

Results

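The 10 genes described here encode regulators of the decay of AU-rich and inflammatory mRNAs, and comprise Zfp36, Zfp36l1, Zfp36l2, Zc3h12a, Elavl1, Hnrnpd, Btg1, Btg2, Tob1 and Tob2. They were chosen by name, and every probe that the array files assign to them was used, which gave 12 of the 55681 probes other than controls. Btg1 and Elavl1 have 2 probes each and the other 8 genes have 1. The mRNAs were measured in RAW264.7, a mouse tumour line with macrophage features, on 16 single-colour arrays. Cells kept in low serum for a day received either the DMSO vehicle or cordycepin at 20 µM for 60 min, and then LPS at 1 µg/ml or no LPS for a further 60 min, so that all cultures had been in DMSO or cordycepin for 120 min. Below, DMSO and cordycepin name the conditions without LPS, and LPS+DMSO and LPS+cordycepin those with it, with 4 replicates in each. Every group is a bulk culture of a single cell line, all cultures contained DMSO, and each replicate number stands for wells of 1 plate on its own day.

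ZFP36 (tristetraprolin) and its relatives ZFP36L1 and ZFP36L2 are zinc finger proteins that bind AU-rich elements in the 3′ ends of cytokine mRNAs and bring in the CCR4-NOT deadenylase, which shortens the poly(A) tail. HNRNPD (AUF1) also binds such elements, whereas ELAVL1 (HuR) is best known for protecting the mRNAs it binds. ZC3H12A (Regnase-1) is an endonuclease that cuts stem loops in inflammatory mRNAs. BTG1, BTG2, TOB1 and TOB2 belong to a single family of adaptors that dock on the deadenylase and stimulate it. LPS, a bacterial cell wall component, starts inflammatory transcription in macrophages through Toll-like receptor 4, and Zfp36 and Zc3h12a belong to the textbook feedback loops that end it. Cordycepin is an adenosine analogue without the 3′ hydroxyl group and inhibits polyadenylation.

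Between 37.1% and 51.2% of the spots of an array were well above background, and no spot was saturated. The share was 37.1% to 43.9% on slide 1 (replicates 1 and 2) and 45.8% to 51.2% on slide 2 (replicates 3 and 4), so it differed by slide. Each of the 12 probes of the decay regulators cleared the background on every array of 1 or more conditions. All 10 macrophage markers examined were well above background on all 16 arrays. Of the markers of other cells, Cd3e and Cd4 of T cells were also well above background on all 16 arrays, with levels that did not pass the test in any comparison. The B cell marker Cd79a stood on average at 5.92 to 6.32 on the log2 scale in 3 conditions and at 8.96 in LPS+cordycepin, while Ms4a1 was not well above background on any array, and no epithelial or fibroblast marker was so on all arrays. Arrays of replicates 1 and 2 were on slide 1 and those of replicates 3 and 4 on slide 2, so each slide held all 4 conditions.

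The upstream sequences of the 3 genes whose mRNA rose with LPS are shown because these members differ from the others in their response. They are the 250 bases before the RefSeq start site on GRCm38.p6, all on the minus strand, at chr7:28379229-28379478 for Zfp36, chr1:134079156-134079405 for Btg2 and chr4:125127882-125128131 for Zc3h12a. Capitals mark a match to a searched motif, which is a CArG box (the binding site of serum response factor) in Zfp36 and a cAMP response element (TGACGTCA) in Btg2.
Zfp36: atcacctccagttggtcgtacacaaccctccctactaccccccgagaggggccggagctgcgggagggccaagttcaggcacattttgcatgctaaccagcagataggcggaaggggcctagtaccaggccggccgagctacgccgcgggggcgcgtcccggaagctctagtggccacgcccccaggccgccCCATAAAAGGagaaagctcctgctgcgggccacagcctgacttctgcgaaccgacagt
Btg2: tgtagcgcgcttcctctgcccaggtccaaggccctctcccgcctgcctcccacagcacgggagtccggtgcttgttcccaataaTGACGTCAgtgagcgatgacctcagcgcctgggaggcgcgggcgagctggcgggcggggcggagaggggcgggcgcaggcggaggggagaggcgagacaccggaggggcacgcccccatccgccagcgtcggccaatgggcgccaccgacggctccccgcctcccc
Zc3h12a: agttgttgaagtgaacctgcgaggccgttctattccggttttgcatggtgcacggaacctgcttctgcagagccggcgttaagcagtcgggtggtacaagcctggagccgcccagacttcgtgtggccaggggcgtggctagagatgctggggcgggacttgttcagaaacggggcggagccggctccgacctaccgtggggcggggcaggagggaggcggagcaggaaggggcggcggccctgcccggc
The motifs were the NF-kB site, the CArG box, TGACGTCA, TGANTCA (AP-1) and TATAAA, looked for on both strands of the 300 bases that end 50 bases after the start site. The CArG box of Zfp36, CCATAAAAGG, lay at bases -58 to -49 from the start site, and this motif occurred in 1.63% of 32851 RefSeq promoters. The element of Btg2 lay at bases -166 to -159, and the motif occurred in 1.79% of promoters. None of the 5 motifs was found in the window of Zc3h12a. Of the other members with an entry, Hnrnpd held a CArG box (CCATTTTAGG, at bases 0 to 9), Zfp36l1 an AP-1 match (TGATTCA, in 7.81% of promoters), and Zfp36l1, Btg1 and Tob1 a TATAAA box (13.6% of promoters). The start site of the window lay 192 bases from the RefSeq gene start for Hnrnpd, 1612 for Tob1 and 40 for Elavl1. The NF-kB site, present in 4.51% of promoters, was found in none of the 9 windows.

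The probes read short stretches of each mRNA, and 30 of the 60 bases are given for those on which the results turn. ATTTA, the core of the AU-rich element and in capitals where it occurs, was present in 3 of the 12 probes, those of Zfp36 and Zc3h12a and the downstream probe of Btg1, and in 7.71% of all probes. On mm9 the stretches lie at chr7:29161970-29161999 for Zfp36, chr4:124795900-124795929 for Zc3h12a and chr1:135972094-135972123 for Btg2, all on the minus strand. Those of Btg1 lie on the plus strand at chr10:96082101-96082130 and chr10:96085364-96085393, and those of Elavl1 on the minus strand at chr8:4288411-4288440 and chr8:4285514-4285543.
Zfp36: ttatgacgactttATTTAttgtattaagat
Zc3h12a: aggcgagATTTAaatattttaaatgaaaaa
Btg2: cactttagaaatgacaaaccctagagctgg
Btg1, upstream probe: gtgaactttgttagtcatcttttatttggt
Btg1, downstream probe: ttaaatcagtcggATTTAtgaataacttca
Elavl1, upstream probe: ggggttctgttctgttaattttcttttgct
Elavl1, downstream probe: atggctagacatttttgtatattagtgtgt
On the genome (mm9) the downstream probe of Btg1 starts 3287 bases further along the strand of the gene than the upstream one, and that of Elavl1 starts 2897 bases further. The array files assign both probes of a gene to the same RefSeq mRNA, which was not checked. For both genes the upstream probe was the brighter and stands for the gene unless the other is named.

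LPS raised the mRNAs of Zfp36, Zc3h12a and Btg2 and left the other 7 below the threshold, an adjusted p of 0.05 in limma over 15877 genes. In replicates 1 to 4, the log2 signal of Zfp36 was 6.30, 5.81, 5.07 and 5.34 in DMSO and 11.71, 11.60, 11.32 and 11.26 in LPS+DMSO. All LPS+DMSO arrays lay far above the DMSO arrays, 2 of which were not well above background for this probe. Those were replicates 1 and 2, on slide 1, although their values were higher than those of replicates 3 and 4. The log2 change was 5.85 (SE 0.31, adjusted p = 2.9e-09), and 4.22 with the normexp background correction (adjusted p = 7.57e-09), so its size depends on the background correction.

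For Zc3h12a the log2 signal was 6.13, 3.90, 5.76 and 6.04 in DMSO and 10.02, 10.17, 10.06 and 10.38 in LPS+DMSO. The groups did not overlap, replicate 2 in DMSO stood below the other 3, and 2 of the DMSO arrays, replicates 1 and 2, were not well above background. The log2 change was 4.70 (SE 0.40, adjusted p = 5.55e-07), and 3.05 with normexp (adjusted p = 2.04e-09). Btg2, whose product links the deadenylase to mRNAs and is known as an early response protein with an antiproliferative action, gave 9.55, 9.74, 9.86 and 10.00 in DMSO and 13.38, 13.45, 13.35 and 13.62 in LPS+DMSO. The groups were again apart, with a narrow spread in each, and all arrays were well above background. The log2 change of Btg2 was 3.66 (12.7-fold, SE 0.15, adjusted p = 1.16e-10).

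**Figure D1:**
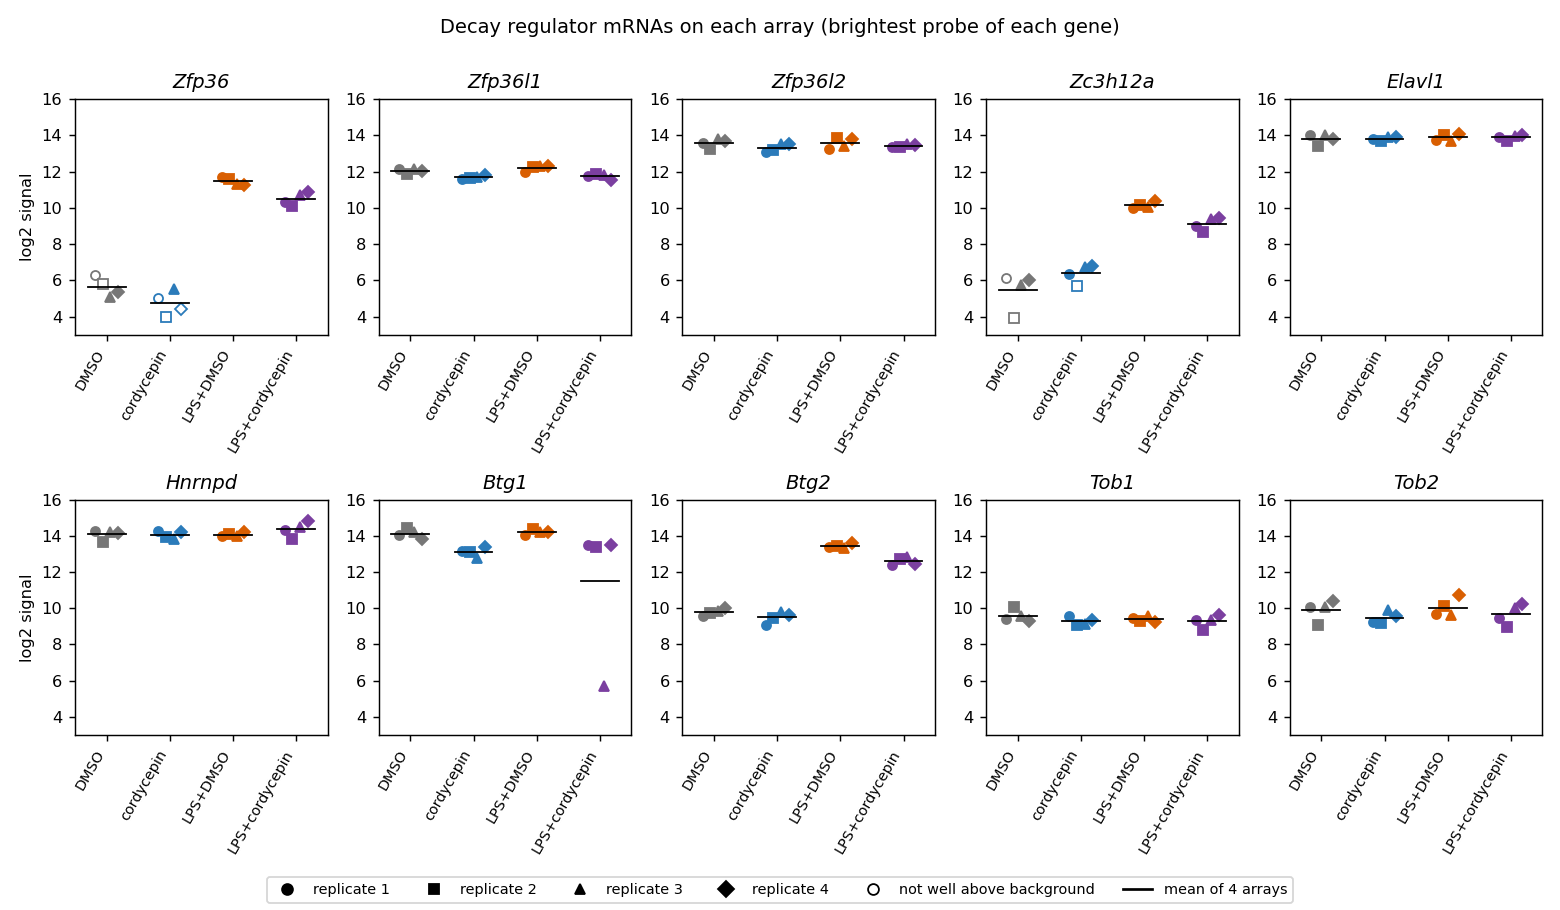
Log2 signal of the brightest probe of each of the 10 decay regulators on the 16 arrays, by condition, with a symbol for each replicate, a line at the mean of 4 arrays and open symbols where the spot was not well above background. Zfp36, Zc3h12a and Btg2 were higher with LPS on every array, and the Btg1 spot of LPS+cordycepin replicate 3 stands at 5.69.

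Thus 3 of 10 decay regulators rose and 0 fell, all 3 by at least 2-fold, against 14.9% of all genes past the threshold and 4.58% past it with at least 2-fold. Counting rises alone, the shares of all genes were 5.11% and 2.09%. Zfp36 and Zc3h12a passed the filter only through the conditions with LPS, where they were high. The median log2 change over the 10 genes was 0.11, beside -0.04 over all genes. Within slides 1 and 2 the LPS change was 5.60 and 6.09 for Zfp36, 5.08 and 4.32 for Zc3h12a, and 3.77 and 3.56 for Btg2. The paralogues of Zfp36 did not pass the test, at 0.17 (95% CI -0.04 to 0.39) for Zfp36l1 and 0.00 (-0.32 to 0.32) for Zfp36l2. The relatives of Btg2 gave 0.08 for Btg1, -0.19 (-0.59 to 0.21) for Tob1 and 0.14 (-0.55 to 0.83) for Tob2. Elavl1, at 0.09 (-0.20 to 0.37), and Hnrnpd, at -0.01 (-0.42 to 0.40), were also below the threshold by their brightest probes.

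In the presence of cordycepin the same 3 mRNAs rose with LPS. The log2 change of LPS+cordycepin against cordycepin was 5.76 for Zfp36 (adjusted p = 6.02e-09), 2.73 for Zc3h12a (adjusted p = 2.41e-04) and 3.1 for Btg2 (adjusted p = 1.12e-09). Again 3 of 10 rose by at least 2-fold and 0 fell, against 8.01% of all genes past the threshold and 2.9% with at least 2-fold. Counting rises alone, these shares were 3.62% and 1.71%. The call of Zc3h12a was lost within slide 1 (2.79, adjusted p = 0.0929). On the cordycepin arrays, 3 of 4 spots of Zfp36 and 1 of 4 of Zc3h12a were not well above background, and with normexp the changes were 3.55 for Zfp36 and 1.89 for Zc3h12a.

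When LPS-treated cells were compared with and without cordycepin, Btg2, Zfp36 and Zfp36l1 were lower with cordycepin. For Btg2 the LPS+cordycepin arrays gave 12.40, 12.71, 12.83 and 12.46, all below the LPS+DMSO arrays given above. The log2 change was -0.86 (SE 0.15, adjusted p = 4.32e-04), a 1.81-fold difference, and it was -0.86 within slide 1 and -0.85 within slide 2. Btg2 in LPS+cordycepin thus remained above every culture without LPS.

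Zfp36 gave 10.34, 10.09, 10.69 and 10.89 in LPS+cordycepin, again below all LPS+DMSO arrays. The log2 change was -0.97 (SE 0.31, adjusted p = 0.038). This call was marginal, since it was -1.44 within slide 1 (adjusted p = 0.0415) and -0.50 within slide 2 (adjusted p = 0.358), and 10 of 20 fits that left out an array or a replicate lost it, namely those without replicate 1, 2 or 4, any single LPS+DMSO array, or LPS+cordycepin replicate 1, 2 or 3. Zfp36l1, the paralogue that LPS did not change beyond the threshold, gave 12, 12.28, 12.34 and 12.29 in LPS+DMSO and 11.78, 11.89, 11.80 and 11.56 in LPS+cordycepin. The groups did not overlap, and the log2 change was -0.47 (SE 0.10, adjusted p = 0.00331). It was -0.30 within slide 1 (adjusted p = 0.399) and -0.64 within slide 2 (adjusted p = 0.0136), and the adjusted p was 0.0525 without replicate 3 and 0.0533 without replicate 4.

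Zc3h12a gave 8.98, 8.67, 9.40 and 9.46 in LPS+cordycepin, below all LPS+DMSO arrays and below the paired array in 4 of 4 replicates. Its log2 change of -1.03 (SE 0.40) did not pass the threshold (adjusted p = 0.092), but passed it with the replicate number as a block (adjusted p = 0.0228) or without DMSO replicate 2 (adjusted p = 0.00363). The slide as a block gave 0.0433, and the values were -1.27 within slide 1 (adjusted p = 0.348) and -0.79 within slide 2 (adjusted p = 0.011). In all, 9 of 36 alternative fits gave Zc3h12a the call, and 15 of 36 lost that of Zfp36.

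In total 3 of 10 genes fell with cordycepin in LPS-treated cells, 0 of them by at least 2-fold, and 0 rose, while 19.2% of all genes passed the threshold and 7.46% passed it with at least 2-fold. Counting falls alone, these shares were 8.36% and 1.52%. The member counts are of brightest probes. Without LPS+cordycepin replicate 3, whose low Btg1 spot is described below, Btg1 also fell past the threshold (-0.74, adjusted p = 0.00259). The downstream probes of Btg1 (1.99) and Elavl1 (0.76) rose past it. The median log2 change of the 10 genes was -0.42, beside 0.04 over all genes. Under a scaling to the spiked-in control probes, 1 of the 10 passed, a member other than Btg2, Zfp36 and Zfp36l1. Under it the changes were -1.13 for Zfp36 (adjusted p = 0.0868), -0.63 for Zfp36l1 (adjusted p = 0.659) and -1.01 for Btg2 (adjusted p = 0.142).

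**Figure D2:**
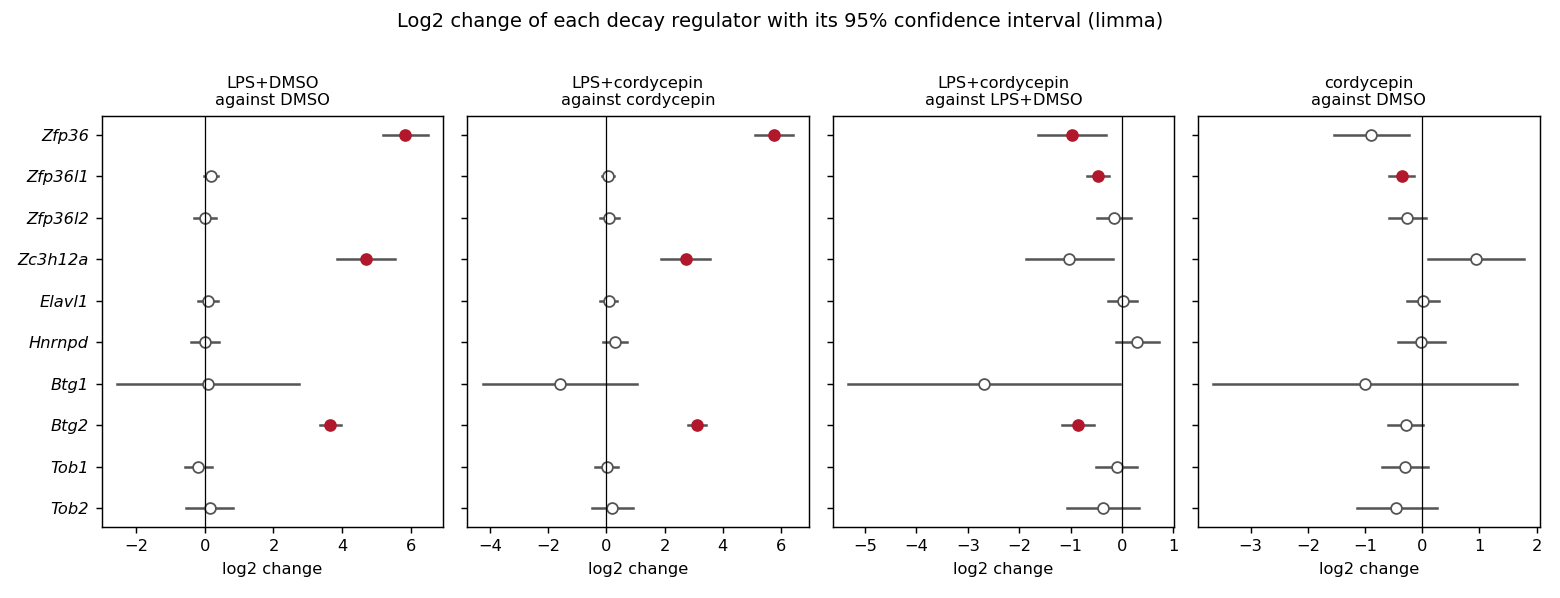
Log2 change of each decay regulator (brightest probe) in 4 comparisons, with its 95% confidence interval from limma and filled symbols where the adjusted p was under 0.05; the scale differs between panels. Zfp36, Zc3h12a and Btg2 lie to the right in both LPS comparisons, and the wide intervals of Btg1 come with the low spot of 1 array.

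Without LPS, only Zfp36l1 passed the threshold by the brightest probes with all arrays kept. It gave 12.15, 11.88, 12.16 and 12.02 in DMSO and 11.58, 11.67, 11.71 and 11.80 in cordycepin, with no overlap. The log2 change was -0.36 (SE 0.10, adjusted p = 0.0233). It was -0.39 and -0.33 within slides 1 and 2 (adjusted p = 0.252 and 0.189), and 6 of 20 fits that left out an array or a replicate lost the call, namely those without replicate 1 or 3, DMSO replicate 1 or 3, or cordycepin replicate 1 or 2.

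Zc3h12a gave 6.36, 5.71, 6.73 and 6.78 in cordycepin and was above the paired DMSO array in 4 of 4 replicates. The log2 change of 0.94 (SE 0.40) had an adjusted p of 0.133, and of 0.0414 with the replicate number as a block. Zfp36, at 5.01, 3.99, 5.52 and 4.43 in cordycepin, overlapped DMSO and had a log2 change of -0.89 (adjusted p = 0.0667), which passed within slide 1 (-1.55, adjusted p = 0.04) and without replicate 3 (-1.33, adjusted p = 0.0173) or its DMSO or cordycepin array alone (-1.07 and -1.15, adjusted p = 0.038 and 0.016), but not within slide 2 (-0.23, adjusted p = 0.743). Of the 10 genes 0 rose and 1 fell, by less than 2-fold, against 15.8% of all genes past the threshold and 5.54% with at least 2-fold, and with the replicate block 2 passed. Without the block, 7.73% of all genes fell past the threshold and 1.07% by at least 2-fold. The member counts are of brightest probes. Without LPS+cordycepin replicate 3, whose low Btg1 spot is described below, Btg1 also fell past the threshold (-1, adjusted p = 1.21e-04). The downstream probes of Btg1 (1.79) and Elavl1 (0.66) rose past it.

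The difference between the LPS responses in cordycepin and in DMSO was tested as an interaction. For Zc3h12a the response was smaller in cordycepin by a log2 difference of -1.96 (SE 0.56, lower in 4 of 4 replicates), with an unadjusted p of 0.00315 and an adjusted p of 0.175. With the replicate number as a block the adjusted p was 0.0399, and with normexp the difference was -1.16 (adjusted p = 0.0444). Btg2 gave -0.56 (SE 0.21, lower in 4 of 4 replicates, adjusted p = 0.396). Zfp36 gave -0.08 (95% CI -1.01 to 0.85), and -0.67 with normexp (adjusted p = 0.81). Since most Zfp36 spots without LPS were near background, no exact size can be given for the difference of its responses. Of the 10 genes 0 passed in limma without a block and 2 had an unadjusted p under 0.05, while 0.548% of all genes passed and 0.359% passed with at least 2-fold.

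The 2 probes of Btg1 moved in opposite directions with cordycepin. The upstream probe gave 14.03, 14.42, 14.22 and 13.84 in DMSO and 13.18, 13.12, 12.80 and 13.41 in cordycepin. It gave 14.05, 14.37, 14.21 and 14.22 for LPS+DMSO, and 13.50, 13.40, 5.69 and 13.50 for LPS+cordycepin. All arrays with cordycepin were below all arrays without it, and replicate 3 in LPS+cordycepin stood far below the rest. The raw mean signal of that spot was 134 against 7803 to 23450 on the other 15 arrays. The software had not marked the spot itself as an outlier, but had marked its local background, which covered 535 pixels against 199 to 264 elsewhere.

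With that spot the change of the upstream probe was -2.68 (SE 1.24, adjusted p = 0.171) in LPS+cordycepin against LPS+DMSO and -1 (SE 1.24, adjusted p = 0.676) in cordycepin against DMSO, since the spread is shared by the conditions. Without that array the changes were -0.74 (adjusted p = 0.00259) and -1 (adjusted p = 1.21e-04). The downstream probe gave 8.29, 8.13, 8.50 and 8.10 in DMSO and 9.79, 9.83, 10.45 and 10.11 in cordycepin. With LPS it gave 8.11, 8.13, 8.17 and 8.15 in LPS+DMSO and 9.74, 10.29, 10.29 and 10.18 in LPS+cordycepin. Every array with cordycepin was above every array without it, replicate 3 in LPS+cordycepin included. The signal of the Btg1 downstream probe rose by 1.99 (SE 0.15, adjusted p = 1.55e-07) with LPS present and by 1.79 (SE 0.15, adjusted p = 6.42e-07) without it.

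Elavl1 was level by its upstream probe, whose 16 values lay between 13.44 and 14.09, but not by its downstream probe. The latter gave 8.22, 8.15, 8.13 and 7.87 in DMSO and 8.67, 8.53, 8.93 and 8.88 in cordycepin. With LPS it gave 9.20, 9.62, 9.20 and 9.75 in DMSO-treated and 10.02, 9.94, 10.38 and 10.48 in cordycepin-treated cultures. The conditions followed each other in that order with no overlap between neighbours. The signal of the Elavl1 downstream probe rose by 1.35 with LPS (adjusted p = 2.14e-05), by 1.45 with LPS in cordycepin (adjusted p = 1.85e-05), by 0.76 with cordycepin in LPS-treated cells (adjusted p = 0.00209) and by 0.66 with cordycepin alone (adjusted p = 0.00767), each SE being 0.16. The last 2 were 0.57 (adjusted p = 0.109) and 0.41 (adjusted p = 0.252) within slide 1, and both lost the call without replicate 3 (adjusted p = 0.0533 and 0.0689).

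**Figure D3:**
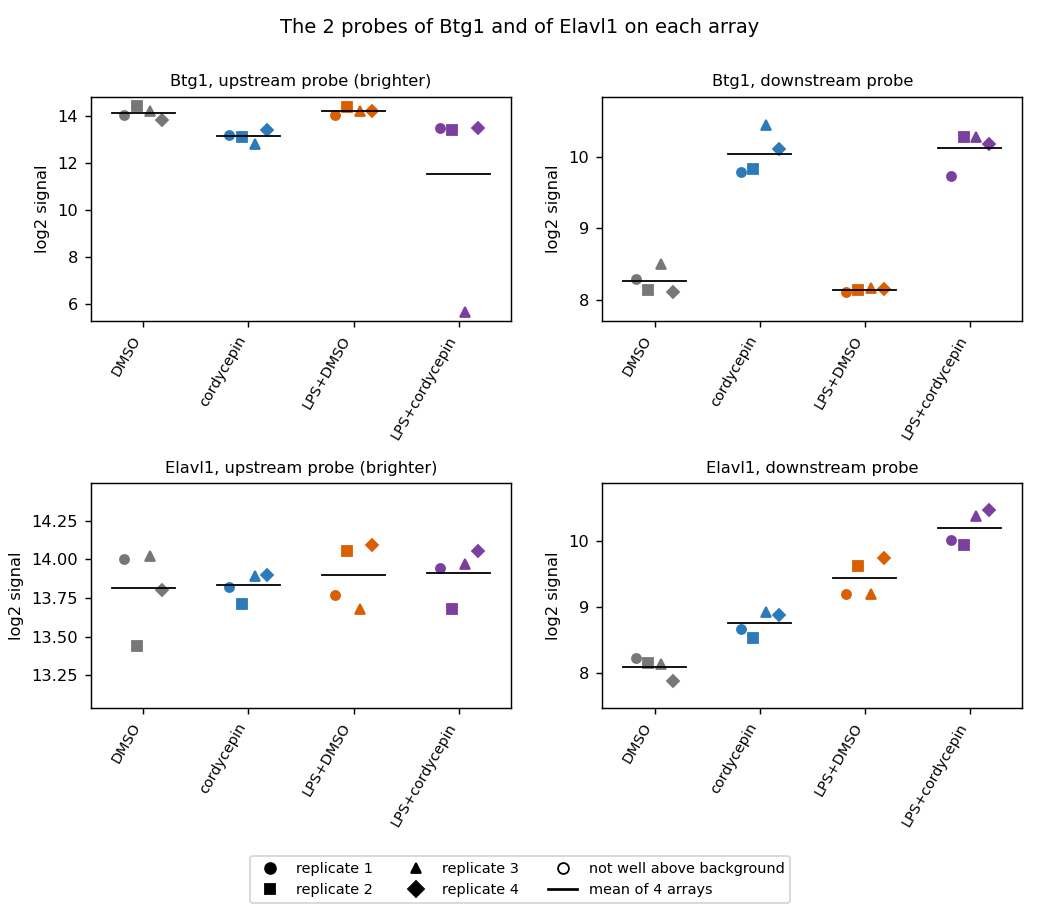
Log2 signal of both probes of Btg1 and of Elavl1 on the 16 arrays, by condition, with a symbol for each replicate and a line at the mean of 4 arrays; each panel has its own scale. The downstream probe of Btg1 is near 10 with cordycepin and near 8 without it, and that of Elavl1 climbs from 8.09 in DMSO to 10.20 in LPS+cordycepin on average.

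The difference between the probes of a gene was tested on each array as downstream less upstream signal, in 8 comparisons by an exact two-sided permutation test. This test took the arrays as independent and did not use their pairing by replicate number or slide. A paired version was not run. Without LPS, that of Elavl1 was -5.72 ± 0.30 in DMSO and -5.08 ± 0.10 in cordycepin, and with LPS it was -4.46 ± 0.10 and -3.70 ± 0.16 (SD, n = 4). All 4 comparisons gave an exact p of 0.0286, the smallest that 4 against 4 arrays can give, and 0.0381 after adjustment over the 8. For Btg1 the difference was -5.87 ± 0.28 in DMSO and -3.08 ± 0.49 in cordycepin (exact p = 0.0286), and -6.07 ± 0.12 in LPS+DMSO. In LPS+cordycepin it was -3.76, -3.11, 4.6 and -3.32, which gave an exact p of 0.0286 against LPS+DMSO. Without replicate 3 it was -3.40 ± 0.33 (SD, n = 3), and the exact p was 0.0571, the smallest that 3 against 4 arrays can give. With LPS in DMSO the probe difference of Btg1 moved by -0.20 (exact p = 0.314).

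The remaining 4 genes did not pass the test in any comparison. Zfp36l2 lay between 13.10 and 13.85 over the 16 arrays and was lower in cordycepin than in DMSO in 4 of 4 replicates, by -0.26 (95% CI -0.58 to 0.07). Hnrnpd lay between 13.64 and 14.84, with its highest mean, 14.37 ± 0.42 (SD, n = 4), in LPS+cordycepin and means of 14.06 to 14.08 in the other 3 conditions. Tob1 lay between 8.80 and 10.08 and Tob2 between 8.96 and 10.71, and for both genes all conditions overlapped. Tob2 had the widest intervals of these 4 genes, at -0.37 (-1.07 to 0.32) for cordycepin in LPS-treated cells, so changes of about 2-fold cannot be told from none here.

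The genes whose log2 signal over the 16 arrays was most like that of the 3 LPS-raised regulators were named by Pearson's r, as a description of arrays that fall into an LPS and a no-LPS cluster. For Zfp36 they were Ccl4 (r = 0.991), Maff (0.990) and Gem (0.990). For Zc3h12a they were Marcksl1 (0.981), Trib1 (0.980) and Bcl3 (0.978), and for Btg2 they were Dusp2 (0.993), Pim1 (0.993) and Id2 (0.991).

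Genes that act on or with the decay regulators were described by lists from general knowledge, to be read beside the 14.9% of all genes past the threshold with LPS and 19.2% with cordycepin in LPS-treated cells. Of 14 kinases, phosphatases, a protease and related regulators, 13 were tested. LPS raised 4, which were Dusp1 (4.11), the phosphatase that ends p38 signalling, Bcl10 (0.89) and the paracaspase Malt1 (0.81), which cleaves Regnase-1, and Mapkapk2 (0.70), the p38-activated kinase that phosphorylates ZFP36. It lowered 1, the p38 kinase Mapk14 (-0.23, adjusted p = 0.0436), whose other probe gave -0.23 (adjusted p = 0.305). That call of Mapk14 was kept in 5 of 20 fits that left out an array or a replicate. In LPS-treated cells cordycepin lowered Dusp1 (-0.97), Malt1 (-0.90) and Mapkapk2 (-0.50) and raised 1, Btrc (1.58, adjusted p = 7.58e-08), a ubiquitin ligase subunit. The median of the 13 was 0.12 with LPS and 0.10 with cordycepin in LPS-treated cells. In the latter comparison the brightest probe of Ppp2ca gave -0.09 (adjusted p = 0.545), while a further probe gave 1.02 (adjusted p = 2.18e-05). For Mapkapk2 the LPS response was smaller in cordycepin (interaction -0.64, adjusted p = 0.0384), but this call was kept in 4 of 20 fits that left out an array or a replicate, where the adjusted p reached 0.506, and it was lost within either slide.

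Of 32 other RNA-binding or related proteins 27 were tested. LPS raised 4, the Regnase-1 paralogue Zc3h12c (1.55), Cpeb4 (1.36), Arid5a (1.32), which protects mRNAs that Regnase-1 cuts, and Rc3h1 (0.85), which encodes Roquin-1, and lowered 1, Tia1 (-0.96). In LPS-treated cells cordycepin lowered 3 of these, Arid5a (-1.89), Zc3h12c (-0.92) and Rc3h1 (-0.34), and raised Btg3 (at least 12.5-fold), Elavl3 (3.14) and Tia1 (1.94). Rc3h1, and Zc3h12c in the latter comparison, fell outside the limit of 4 names per list and were named after their values were seen. The probe named Btg3 has a position on chromosome 17 in the array files while RefSeq has the gene on chromosome 16, and a further probe of Tia1 gave -0.34 with LPS (adjusted p = 0.244) and 0.17 with cordycepin (adjusted p = 0.61). In LPS+DMSO 2 of 4 spots of Elavl3 cleared the background, and with normexp its change was 1.64. The call of Zc3h12c with cordycepin was kept in 14 and that of Rc3h1 in 15 of 20 fits that left out an array or a replicate. The median of the 27 was 0.11 with LPS and -0.03 with cordycepin. In LPS-treated cells further probes of Tial1 (0.81, adjusted p = 1.46e-05) and Hnrnpdl (0.54, adjusted p = 0.0044) rose with cordycepin. A further probe of Celf1 fell (-0.52, adjusted p = 4.24e-04). The brightest probes of Tial1, Hnrnpdl and Celf1 gave 0, -0.03 and -0.07.

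All 28 genes of the CCR4-NOT, PAN2-PAN3, decapping and exonuclease machinery were tested. Against 14.9% of all genes with LPS and 19.2% with cordycepin, 1 and 3 of the 28 passed. With LPS 1 rose, the decapping factor Dcp1a (0.41, adjusted p = 0.0304), and in LPS-treated cells cordycepin lowered 3, Edc3 (-0.85), Cnot11 (-0.34, with 0.18 by its other probe) and Gigyf2 (-0.32). The medians were 0.04 and 0.03. These counts and medians are of brightest probes. For Eif4e2 that probe gave -0.25 with cordycepin in LPS-treated cells (adjusted p = 0.0794). Its further probes gave 1.68 and 0.73 (adjusted p = 1.59e-04 and 0.00153). Leaving out 1 array or replicate gave 0 for LPS without replicate 1, 3 or 4, DMSO replicate 2 or 4, or LPS+DMSO replicate 1 or 4, and 2 without LPS+cordycepin replicate 3. For cordycepin 1 passed without replicate 3 or 4 and 5 passed without LPS+cordycepin replicate 2.

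Of 22 listed targets of ZFP36, 17 were tested, and LPS raised all 17 by at least 2-fold (median 3.83), against 4.58% of all genes changed by that much. Raised by that much were 2.09% of all genes. The filter admitted targets silent without LPS through the LPS arrays where they were high. It thus partly set this count, which is a description only. The call of Il6 (2.74) was kept in 13 of 20 fits that left out an array or a replicate, and it was lost with normexp (0.83, adjusted p = 0.311). The other genes included Cxcl2 (10.09) and Tnf (6.71), which encode inflammatory mediators, and Nfkbiz (5.21), which encodes a nuclear regulator of NF-kB target genes. Il1b was not well above background on any DMSO array and rose at least 77.1-fold. In LPS-treated cells cordycepin lowered 12 of 17, 8 of them by at least 2-fold, and raised 0, with a median of -1.05, against 19.2% of all genes past the threshold. Of all genes 8.36% were lowered, and 1.52% by at least 2-fold. Since LPS raised all 17, these shares are not those of genes with a like LPS response. Whether other LPS-raised genes fell as often was not tested, so no trait particular to ZFP36 targets is shown. The largest falls among the targets past the threshold were those of Myc (-1.92), Il1b (-1.73), Ptgs2 (-1.47) and Ccl2 (-1.32). Il6, not well above background on any LPS+cordycepin array, was at least 2.31-fold lower but did not pass (adjusted p = 0.0651). Within slide 1 this count was 7 of 17. For Tnf alone of the 17 the interaction passed the threshold (-1.54, adjusted p = 3.74e-04).

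Of 13 listed targets of Regnase-1, 10 were tested, 7 of which are also in the ZFP36 list. Their count with LPS has the same limit from the filter, and their falls with cordycepin were likewise not compared with those of other LPS-raised genes. LPS raised 8 (median 2.95), and in LPS-treated cells cordycepin lowered 5, led by Arid5a (-1.89), Il1b (-1.73) and Ptgs2 (-1.47), and raised 2, Tnfrsf4 (1.06) and Icos (0.44, adjusted p = 0.0191, with 0.44 and adjusted p = 0.44 by its other probe), with a median of -0.89. Within slide 1 the count past the threshold was 4 in place of 7.

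**Figure D4:**
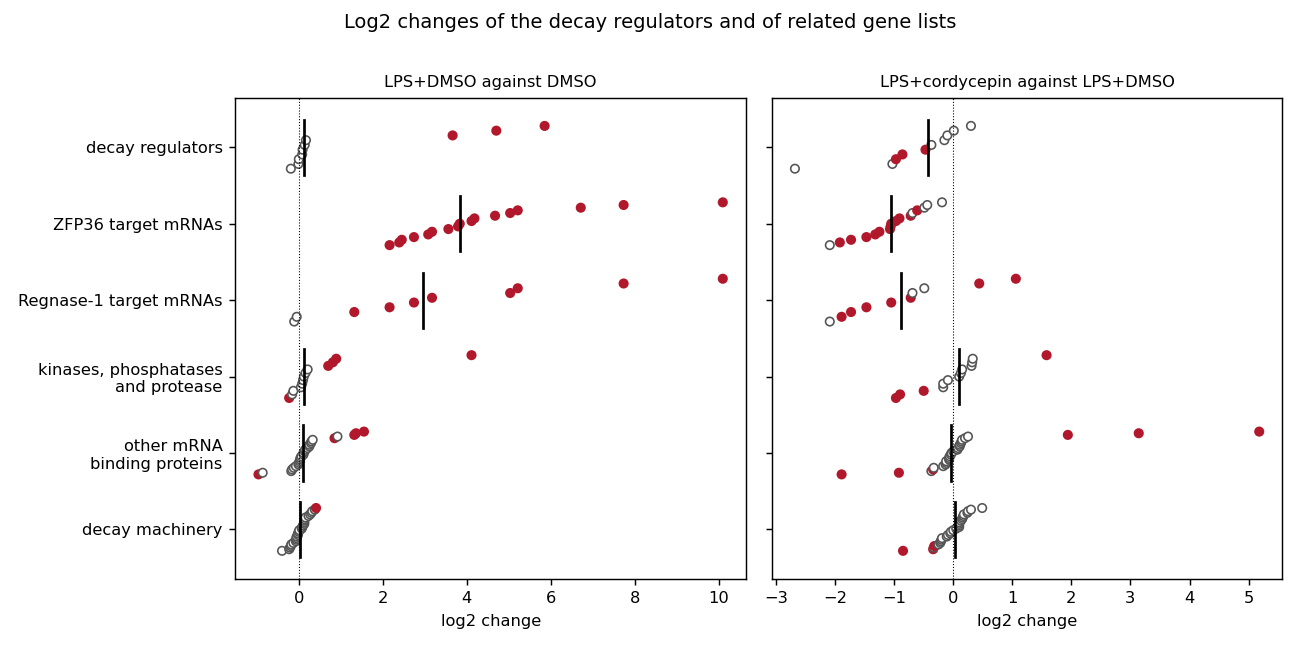
Log2 changes of the 10 decay regulators and of the tested genes of 5 related lists with LPS (left) and with cordycepin in LPS-treated cells (right), where a circle is a gene, filled at an adjusted p under 0.05, and the line is the median of the list. The medians of the ZFP36 target mRNAs lie at 3.83 and -1.05, and those of the decay machinery at 0.04 and 0.03.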

How the data were processed

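RNA of RAW264.7 cells was labelled with Cy3 (Agilent Low Input Quick Amp kit, which primes at the poly(A) tail, so the amount of an mRNA and the state of its tail cannot be told apart) and hybridised to mouse 8 × 60K arrays. The scanner files that the authors deposited hold the intensity of each spot from Agilent Feature Extraction (10.7.3.1 per the file headers, 10.10.1.1 per the labels), without normalization between arrays, with probe positions on mm9. The authors also deposited log2 values of 25775 spots, normalized between arrays by a method not given in the sources used here. They correlated with the scanner values at r = 0.995 to 0.998 and served as an alternative.

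Processed intensities went through log2 after spots marked as outliers had been left out (127 missing probe values). From each array its 75th percentile was subtracted, taken over the 18148 probes that cleared the background on all arrays. For the fit, 21598 probes were retained that did so throughout 1 or more conditions. Names came from RefSeq by accession (27650 probes), symbol (3406) or synonym (321), or else from the files (24304), and the brightest probe stood for a gene. limma 3.58.1 (R 4.3.3) fitted 4 condition means to the 16 arrays together, with Benjamini-Hochberg adjustment over 15877 genes, or over 21598 probes where probes of a gene were compared. This main fit had no term for replicate number or slide, so it did not use the pairing of the samples. A change was called at an adjusted p under 0.05. With 4 arrays per condition, their number limits the precision. The fit was tested on simulated data. Python 3.11.15 with pandas 2.3.3, scipy 1.17.1 and matplotlib 3.10.9 read the files, ran the permutation tests and drew the plots.

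Conditions, doses and replicate numbers came from the labels, which also say that each replicate was collected on a separate day, so equal numbers pair the samples. The mean correlation of residuals was 0.2 between arrays with equal numbers (-0.059 to 0.44, 20 of 24 pairs over 0.1), 0.18 between other arrays of a slide and -0.19 between slides. The members and gene lists were chosen with earlier results of these data known. Beyond the 10 members, the text names at most 4 genes past the threshold per list and comparison, and 3 genes most like each LPS-raised member. Genes named only for a further probe were chosen after their values were seen. Alternatives were other scalings, background corrections, filters and probe rules, blocks for replicate number and slide, single slides, fits of only the groups compared, other thresholds and leaving out arrays. An alternative without spots whose local background was marked as out of line was added after the data were seen. Promoter sequences are those of RefSeq on GRCm38.p6 for the 9 members with an entry.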

Additional observations from a re-analysis of the deposited data

Results flagged for a closer look

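Over 40 groups of 4 arrays (10 genes in 4 conditions), 2 held an array far from the other 3 by Dixon's criterion, and chance flags about 1 in 20 groups. The log2 signal of Btg1 in LPS+cordycepin was far lower in replicate 3, at 5.69 against 13.40 to 13.50, a gap of 0.987 of the range of the group. The downstream probe of Btg1 on the same array gave 10.29, within the range of the other 3. For Zc3h12a in DMSO, replicate 2 was low at 3.90 against 5.76 to 6.13, a gap of 0.833 of the range, and it was not well above background there.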

How the results depend on the processing

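With LPS 3 members passed in DMSO and 3 in cordycepin. Restricted to probes well above background on all arrays, which 8 members have, 1 passed in each. The mean of a gene's probes gave 4 in each, slide 1 alone gave 2 in cordycepin, and leaving out arrays gave 3 throughout. In LPS+cordycepin against LPS+DMSO, 3 members passed. With scaling to the spiked-in controls 1 passed, which was not among those 3, and at a 2-fold minimum 0 passed. The count was 1 (without replicate 4) to 4 (without DMSO replicate 2) when an array or replicate was left out. In cordycepin against DMSO 1 passed. The count was 2 with quantile normalization, with the 75th percentile over all probes, with the replicate block, within slide 1, with only the groups compared, and without spots of out-of-line background. It was 0 with the spiked-in controls, with no filter on dim probes, at an adjusted p under 0.01 and at a 2-fold minimum, and 0 (without replicate 1, DMSO replicate 1 or cordycepin replicate 1 or 2) to 2 (without replicate 2 or 3, cordycepin replicate 3 or LPS+cordycepin replicate 3) on leaving out arrays. For the interaction 0 passed, but 1 with normexp, the replicate block or slide 2 alone, and 0 to 1 on leaving out arrays, the 1 being Zc3h12a without replicate 2. The replicate block changed the call of Zc3h12a in the 3 comparisons given in the report and no other call of a member. Under these alternatives 2067 of 2140 recomputed member changes kept their direction and side of the threshold, 40 lost and 33 gained the call, and 0 reversed. The cause of these shifts was not tested. Scaling to the spiked-in controls moved the median of all genes to -0.14 with LPS and to -0.12 with cordycepin in LPS-treated cells, where 73.2% of called genes were higher, against 56.4% in the main scaling and 40.8% with the percentile over all probes. With LPS in DMSO 34.4% were higher, and 46.3% with that percentile. Leaving out out-of-line background spots ended the call of Zfp36 in LPS-treated cells (-0.89, adjusted p = 0.0907). The mean of both Elavl1 probes rose with LPS by 0.72 (adjusted p = 0.00142). The interaction could not be fitted with only the groups compared. Signal over background limits Zfp36 and Zc3h12a, which without LPS were well above it on only some arrays.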

Other observations

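Without LPS, cordycepin changed 6 of the 17 tested ZFP36 targets, against 15.8% of all genes, and these genes were named after their values were seen. The count was 2 without replicate 3 and 3 without replicate 1, within slide 1 or with normexp. It raised the chemokine mRNA Cxcl2 (1.91, adjusted p = 0.0348) and Tnf (0.47, adjusted p = 0.0104), and lowered Plk3 (-0.81), Dusp1 (-0.76), Ccl4 (-0.69) and Ptgs2 (-0.61). Of 20 fits that left out an array or a replicate, 11 kept the call of Cxcl2, 18 that of Tnf, 14 that of Dusp1 and 13 that of Ptgs2, and 20 kept those of Plk3 and Ccl4. Cxcl2 was 0.50 within slide 1 (adjusted p = 0.462) and 3.32 within slide 2. Of the decay machinery 1 gene passed, Edc3 (-0.73, adjusted p = 9.55e-05), and 4 did with the replicate number as a block. Among the other RNA-binding proteins Arid5a fell (-1.51) and Elavl3 (2.66) and Tia1 (1.47) rose, as did the probe named Btg3 (at least 14.9-fold). A further probe of Tia1 gave -0.16 (adjusted p = 0.618). In DMSO 1 of 4 spots of Elavl3 cleared the background, its change was 1.14 with normexp, and without replicate 3 its adjusted p was 0.0569.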
